A study of Homo sapiens with 12 samples.

Results

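Repeat element RNA was followed in THP-1 cells that carried SETDB1 sgRNA 9, from day 4 to day 7. The 3 libraries titled with day 7 and the 3 titled with day 4 were chosen by their titles, which makes 6 of the 12 libraries in the series. All 45 repeat elements found in both tables were kept, with the plus and minus columns of an element held apart, so that 90 features (an element on 1 strand) were followed. THP-1 is an established monocytic line from acute myeloid leukaemia. Cells of every group, the controls included, had been transduced with a single guide RNA (sgRNA) and placed under puromycin at 1 µg/ml from 48 h later. RNA was sequenced from 100 ng of total RNA per sample with a strand-keeping kit. The other 6 libraries carry a non-targeting sgRNA at the same days, 3 at each, and serve here as the control arm.

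The design text speaks of SETDB1 sgRNAs 6 and 9, whereas every SETDB1 title names 9, and the groups follow the titles. Whether the cells were a clone, and whether replicates were separate cultures, is not stated in the labels. The p-values below therefore measure only how these samples vary, and that variation may be technical. The tables hold repeat elements alone, so neither the level of SETDB1 nor markers of the cell line could be checked. Each day has its own table with both arms in it. Day, time in culture and any step that differed between the tables therefore cannot be told apart within the SETDB1 arm, and the control arm crosses the same tables.

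SETDB1 places methyl groups on lysine 9 of histone H3. It is brought to endogenous retroviruses and other repeats by zinc finger proteins through the corepressor TRIM28, and the mark keeps that chromatin silent. Endogenous retroviruses (HERV names) consist of an internal coding part between long terminal repeats (LTR names), which hold the promoter. L1 elements are retrotransposons that spread by copying their RNA, and satellites such as ALR and SST1 are tandem repeats.

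The 6 SETDB1 libraries held 38524 to 58916 counts over the 45 elements, and the 6 non-targeting libraries 27388 to 42445. Totals were 47030, 45911 and 58916 at day 4 and 38524, 57211 and 54006 at day 7 in SETDB1 cells. Their mean moved from 50619 ± 7207 (SD, n = 3) to 49914 ± 9993, a ratio of 0.986 that was within the spread between replicates (two-sided exact permutation test, p = 0.9, with 0.1 the smallest p possible). The ratio was 1.07 without SETDB1 day 4 replicate 3 and 1.10 without SETDB1 day 7 replicate 1. Levels are given as CPM, counts scaled to 1000000 table counts per library after TMM correction, so they are relative to the other elements and not to the whole transcriptome. L1P1_orf2 alone took 39.2% ± 1.57 of the counts at day 4 and 36.2% ± 1.47 at day 7. SETDB1 day 4 replicate 1 stood apart from its group, with a chi-square over degrees of freedom of 15.4 and 12.3 against replicates 2 and 3 and 3.32 between those, and non-targeting day 4 replicate 2 likewise, with 9.57 and 10.7 against 1.75.

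Between day 4 and day 7, 8 features rose and 1 fell in SETDB1 cells by edgeR, while DESeq2 gave 6 higher and 7 lower, and edgeR without non-targeting day 4 replicate 2 gave 7 higher and 17 lower. HERV3 and its terminal repeat LTR4 rose about as much as each other and by the largest factors among the tested features, 2.81-fold and 3.02-fold on the minus strand. The satellite SST1 and the retrovirus HERVK rose on both strands, and HERVP71A and L1MA8_3end on the minus strand, by 1.45-fold to 1.90-fold. The centromeric satellite ALR fell on the minus strand, 1.99-fold. The edgeR calls were made over 70 features with enough counts to test, which belong to 39 elements (quasi-likelihood test in edgeR, p adjusted by Benjamini-Hochberg under 0.05), and amount to 12.9% in either direction, 11.4% higher and 1.43% lower.

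A log2 change within 0.5 of 0 was found for 57 of the 70, and the median over all 70 was -0.07. HERVL18 plus, L1M2c_5end plus and minus and L1PBb_5end plus lay outside that range without passing the test, at 1.06, -0.98, 0.71 and 0.81. At an unadjusted p under 0.05, 14 features were higher and 6 lower. The 3 day 7 libraries lay wholly apart from the 3 day 4 libraries for 24 of 70 features, or 34.3%, with 14 above and 10 below, whereas 13 of 70, or 18.6%, did so in the non-targeting arm. The count of lower features rested on single libraries: 17 were lower without non-targeting day 4 replicate 2, where the median of tested features moved to -0.23, 3 without SETDB1 day 4 replicate 1 or replicate 2, and 2 without SETDB1 day 4 replicate 3 or day 7 replicate 2. Without SETDB1 day 7 replicate 2, 5 features were higher.

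**Figure D1:**
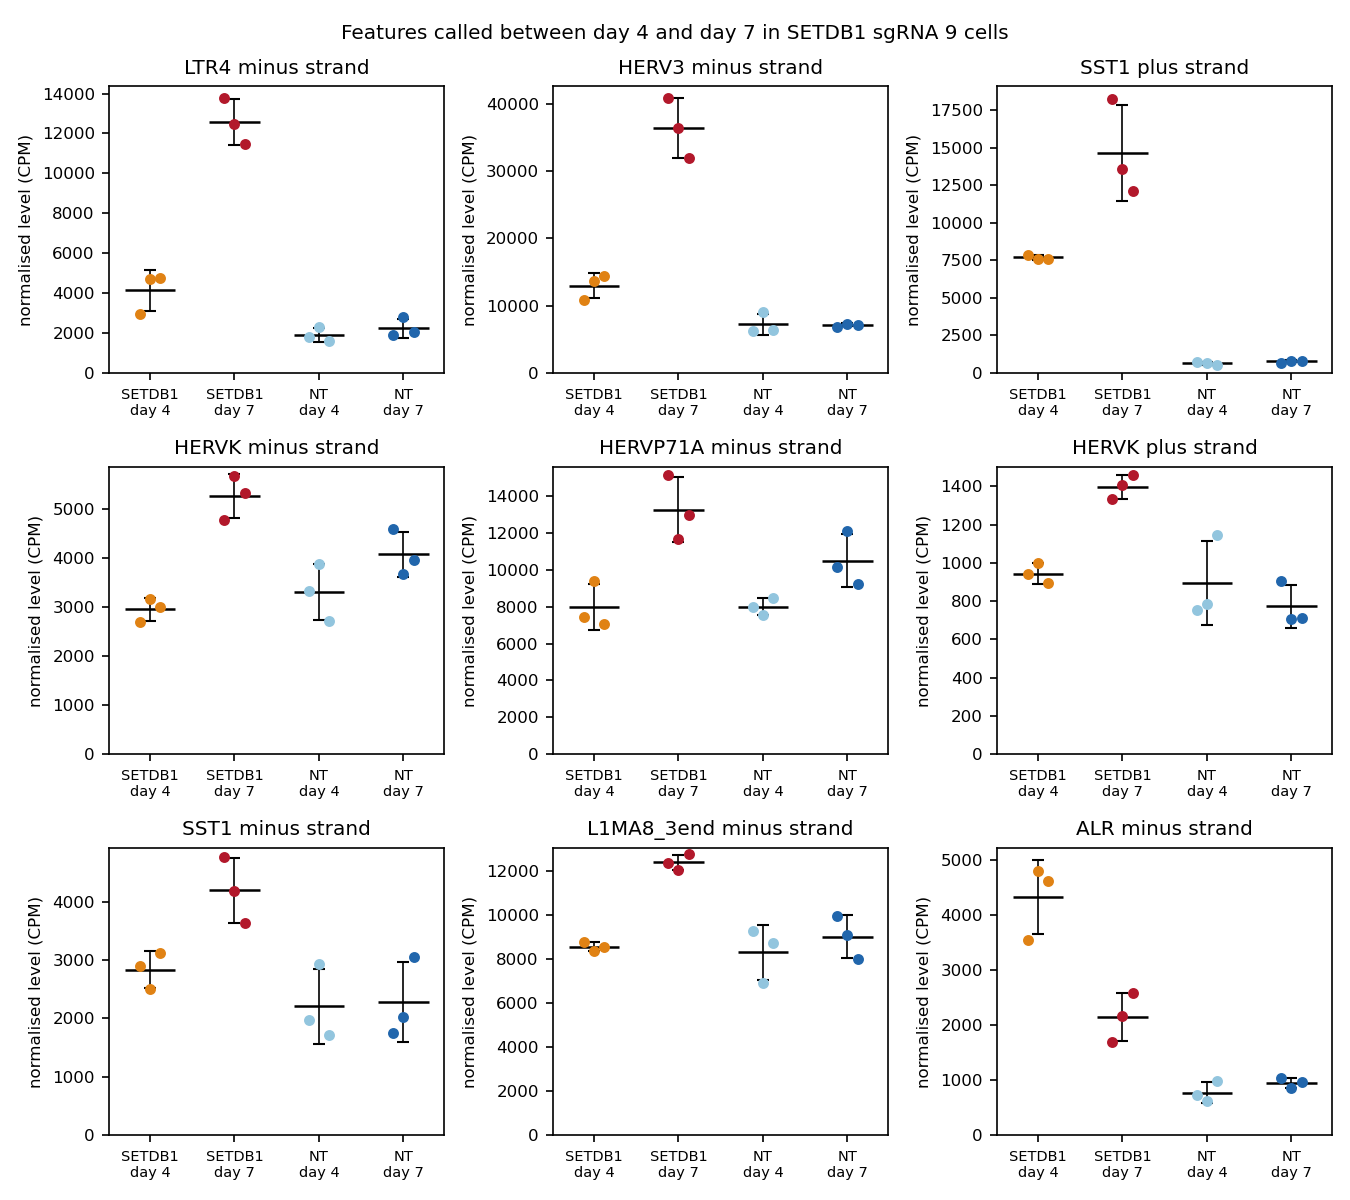
Normalised level (CPM, linear axes from 0) of the 9 called features in each library, with bars for the mean and SD of the 3 libraries of a group. In each of the 8 panels of rising features the SETDB1 day 7 libraries lie above the SETDB1 day 4 libraries, and in the ALR panel they lie below.

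HERV3 is a class I endogenous retrovirus known for a copy that keeps an open envelope gene. Its minus column held 530, 577 and 788 counts at day 4 and 1658, 2175 and 1712 at day 7. Each of the 3 day 7 libraries was far above each day 4 library. The mean level went from 12970 ± 1883 to 36427 ± 4468 CPM (SD, n = 3 each), a log2 change of 1.49 ± 0.14 (SE, edgeR adjusted p = 2.42e-10). The plus column behaved otherwise. It held 49, 41 and 67 counts at day 4 and 43, 69 and 64 at day 7, groups that overlapped, with a log2 change of 0.09 ± 0.19 (edgeR adjusted p = 0.762). HERV3 went from 1.34% ± 0.11 of all table counts to 3.88% ± 0.56.

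LTR4 is the long terminal repeat that flanks HERV3. Its minus column held 145, 198 and 262 counts at day 4 and 558, 744 and 614 at day 7. Every day 7 library was above every day 4 library. The level went from 4149 ± 1028 to 12562 ± 1154 CPM, a log2 change of 1.60 ± 0.16 (edgeR adjusted p = 4.67e-10). Its plus column held 3, 0 and 2 counts and then 4, 3 and 3, too few to test. The internal part and the terminal repeat kept a similar proportion in each library: LTR4 minus counts per 100 HERV3 minus counts were 27.4, 34.3 and 33.2 at day 4 and 33.7, 34.2 and 35.9 at day 7. These ranges overlapped, and in non-targeting cells the proportion was 26.4 ± 2.2 at day 4 and 31.4 ± 5.7 at day 7.

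HERVK, the youngest group of human endogenous retroviruses and a class II element, was called on both strands. Its minus column held 132, 133 and 165 counts at day 4 and 194, 339 and 286 at day 7, and the groups did not overlap. The level went from 2956 ± 237 to 5267 ± 448 CPM, with a log2 change of 0.84 ± 0.15 (edgeR adjusted p = 2.98e-05). In the plus column 46, 42 and 49 counts became 54, 84 and 78, again without overlap in CPM. That change was 0.57 ± 0.19 (edgeR adjusted p = 0.0391), and the call was lost when any 1 of the 6 SETDB1 libraries or non-targeting day 4 replicate 2 was left out, where the change ranged from 0.40 to 0.61. Of 31 elements with both strands tested, HERVK and SST1 were the 2 called higher on both, and 0 were lower on both by edgeR, also at an unadjusted p under 0.05. DESeq2 gave 0 higher on both and 1 lower on both, L1PA12_3end.

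Among the class I internal models other than HERV3, 1 of 7 tested features was called, beside 12.9% of all 70. Their median log2 change was 0.07, beside -0.07 over all 70. HERVP71A, a class I provirus family, was that feature on the minus strand, where 365, 396 and 387 counts became 615, 699 and 695. The groups did not overlap. The log2 change was 0.74 ± 0.14 (edgeR adjusted p = 8.09e-05), from 7975 ± 1261 to 13284 ± 1758 CPM. In the non-targeting arm the same feature moved by 0.39 ± 0.14 (edgeR adjusted p = 0.127), also without overlap between the days. HUERS-P3b differed by less than its error on both strands, 0.07 ± 0.15 on plus and -0.02 ± 0.14 on minus. LTR23-int minus, with 99, 69 and 57 counts and then 40, 73 and 72, had a change of -0.38 ± 0.20 (edgeR adjusted p = 0.183), and its groups overlapped. HERV-Fc1 was at 0 on the minus strand in all libraries, and its plus strand gave 0.18 ± 0.18.

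SST1 is a tandem satellite repeat. Its plus column held 386, 319 and 418 counts at day 4 and 739, 811 and 649 at day 7. The groups did not overlap, and the day 4 libraries lay close together at 7697 ± 166 CPM against 14642 ± 3194 at day 7. The log2 change was 0.92 ± 0.14 (edgeR adjusted p = 2.93e-06). The minus column went from 142, 105 and 171 counts to 193, 250 and 195, with no overlap in CPM and a change of 0.55 ± 0.17 (edgeR adjusted p = 0.0279). This call was lost without non-targeting day 4 replicate 2, SETDB1 day 4 replicate 2, or SETDB1 day 7 replicate 1 or 2, with changes of 0.40 to 0.47. In SETDB1 cells most SST1 counts were on the plus strand, the minus share being 26.9% ± 2.1 at day 4 and 22.5% ± 1.5 at day 7, while in non-targeting cells most were on the minus strand, 77.1% ± 4.7 and 73.9% ± 4.4.

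ALR is the alpha satellite that makes up human centromeres. Its minus column held 174, 202 and 254 counts at day 4 and 69, 130 and 138 at day 7, so every day 7 library was below every day 4 library. The level went from 4329 ± 676 to 2152 ± 438 CPM and fell by 0.99 ± 0.16 on the log2 scale (edgeR adjusted p = 1.23e-05). The plus column, with 175, 174 and 272 counts and then 76, 225 and 229, gave -0.34 ± 0.19 (edgeR adjusted p = 0.215). Replicate 1 was the low library of day 7 on this strand, and the groups overlapped. In non-targeting cells the ALR minus level was 773 ± 183 CPM at day 4 and 948 ± 89 at day 7. Over the satellites as a list, 2 of 7 tested features were higher, both of SST1, and 1 was lower, ALR minus. Over all 70 features 11.4% were higher and 1.43% lower. The median of the list was 0.18, beside -0.07 over all 70. SATR1 plus did not overlap between days, 31, 29 and 36 counts against 39, 64 and 40, but gave 0.49 ± 0.23 (edgeR adjusted p = 0.149), and CER plus gave 0.18 ± 0.34.

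**Figure D2:**
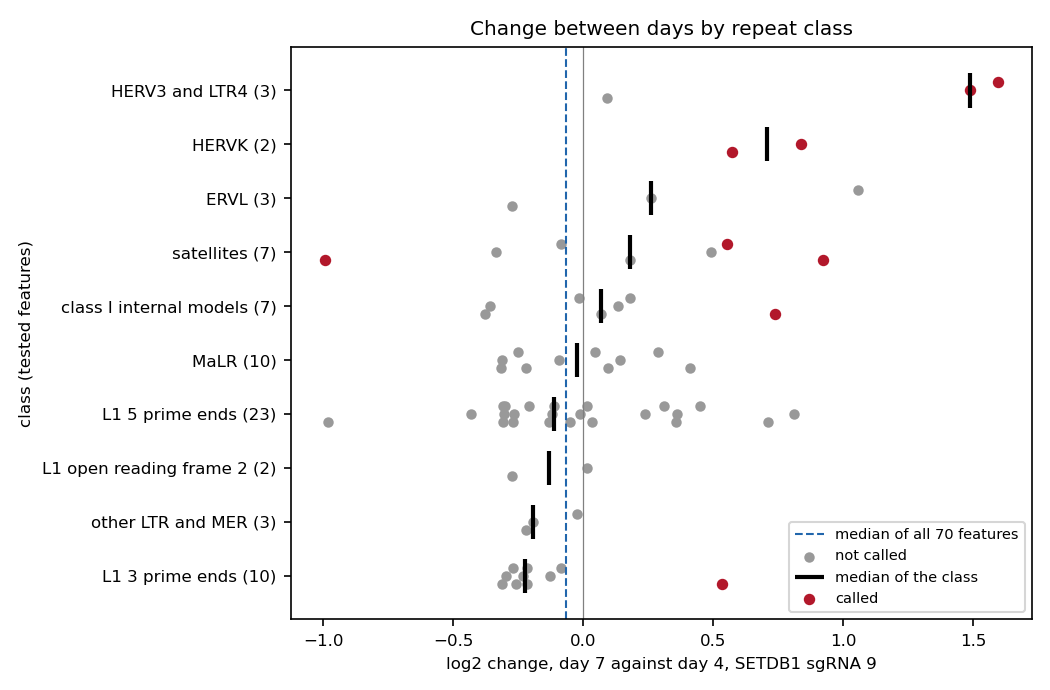
log2 change from day 4 to day 7 in SETDB1 cells for the 70 tested features, grouped by repeat class, with the number tested in brackets. Black bars are class medians, from 1.49 for HERV3 and LTR4 to -0.23 for L1 3 prime ends, and the dashed line is the median of all features at -0.07. The classes were drawn up with earlier results of these data known, so the order of the medians depends on that grouping.

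L1 elements hold most of the table's counts, and edgeR called 1 of their 35 tested features, beside 12.9% of all features. DESeq2 called 1 of them higher and 6 lower. L1MA8_3end models the tail of an old mammalian L1 family. Its minus column went from 430, 353 and 469 counts to 502, 722 and 684, and the levels did not overlap, at 8576 ± 199 and 12414 ± 346 CPM. The log2 change was 0.53 ± 0.13 (edgeR adjusted p = 0.00229), and the call was lost without SETDB1 day 7 replicate 2, at 0.45. The plus column of the same element gave -0.30 ± 0.16 (edgeR adjusted p = 0.183).

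The other 9 of 10 tested features at L1 3 prime ends had estimates below 0, from -0.31 to -0.09. With table totals or unscaled counts, 8 of 10 were below 0. Over all 70 features, 39 estimates were below 0. In non-targeting cells 3 of the 10 were below 0, or 5 with table totals. By edgeR 0 of the 9 were called in SETDB1 cells, 2 at an unadjusted p under 0.05, and by DESeq2 4. L1PA5_3end, a primate-specific tail model, went from 6778, 6958 and 8583 counts on the minus strand to 5127, 7378 and 7197. Its levels did not overlap, and the change was -0.26 ± 0.12 (edgeR adjusted p = 0.134). L1PA12_3end was similar on the plus strand, 889, 672 and 834 counts against 475, 783 and 796 with a change of -0.31 ± 0.13 (edgeR adjusted p = 0.107). These were the 2 with an unadjusted p under 0.05, and DESeq2 called them, L1PA12_3end minus and L1PA10_3end minus lower. Related L1 models have much sequence in common, and how the counting divided reads among them is uncertain.

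Open reading frame 2 of L1 encodes its reverse transcriptase and endonuclease. L1P1_orf2 minus held 13299, 15617 and 19599 counts at day 4 and 10770, 15966 and 15738 at day 7. The groups overlapped and the change was -0.27 ± 0.13 (edgeR adjusted p = 0.134), and DESeq2 called it lower. On the plus strand 4292, 2714 and 4137 counts became 2546, 4988 and 4472, a change of 0.01 ± 0.14.

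The 5 prime end of L1 holds its promoter. Of 23 tested features there, 0 were called by edgeR, beside 12.9% of all features, with 4 at an unadjusted p under 0.05. DESeq2 called 1, L1M2c_5end plus, lower. By edgeR L1M2c_5end plus was lower too with no filter, with the replicate block, and without some single libraries. The median of the 23 was -0.11, with 14 estimates below 0, or 12 with table totals. Over all 70 features the median was -0.07, with 39 estimates below 0. In non-targeting cells the median of the 23 was -0.17, with 20 estimates below 0, or 23 with table totals. Over all 70 features 35 were below 0 there. The most abundant of the 23, L1P1_5end minus, gave -0.30 ± 0.16 in SETDB1 cells (edgeR adjusted p = 0.183). L1M2c_5end plus had the lowest estimate, -0.98 ± 0.36 (edgeR adjusted p = 0.063), on 24, 12 and 30 counts at day 4 and 5, 18 and 12 at day 7, which overlapped. The non-targeting arm gave -1.04 ± 0.45 for the same feature. L1PBa1_5end plus followed with -0.43 ± 0.17 (edgeR adjusted p = 0.0922).

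MaLR elements are old non-autonomous LTR elements. Their 10 tested features had a median of -0.02, above 0 with table totals at 0.07, with 5 estimates on each side of 0. By edgeR 0 were called, beside 12.9% of all features, and by DESeq2 0, with 2 and 3 at an unadjusted p under 0.05. THE1C plus went from 1085, 880 and 1283 counts to 1165, 1539 and 1424, without overlap in CPM, and gave 0.29 ± 0.12 (edgeR adjusted p = 0.107). MSTC minus gave 0.41 ± 0.15 (edgeR adjusted p = 0.0632). With table totals or without L1P1_orf2, edgeR called THE1C plus and MSTC minus higher. ERVL elements, the class III retroviruses, had 3 tested features, of which 0 were called by edgeR or DESeq2 and 1 had an unadjusted p under 0.05 in each. HERVL18 plus was that feature, with 10, 6 and 7 counts against 14, 19 and 18, no overlap, and 1.06 ± 0.39 (edgeR adjusted p = 0.063). Under other settings edgeR called HERVL18 plus higher, with table totals, with no filter and without L1P1_orf2. It was also called without non-targeting day 4 replicate 1, or without non-targeting day 7 replicate 2 or 3. MLT2B5 minus gave -0.27 ± 0.21 (edgeR adjusted p = 0.398). The 3 tested features of other LTR and MER models lay between -0.22 and -0.03, and 0 had an unadjusted p under 0.05 by edgeR or DESeq2. LTR26 minus, the most abundant, gave -0.03 ± 0.23 (edgeR adjusted p = 0.933).

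The 20 features that were not tested held 0.121% of all counts, and none had more than 15 in a SETDB1 library. Of these, 5 were at 0 in all 6 SETDB1 libraries. Together they held 168 counts at day 4 and 220 at day 7. MER101B plus, an LTR model, had 3, 4 and 3 counts and then 4, 15 and 14. CR1_Mam minus, of an ancient LINE family, had 2, 1 and 2 and then 2, 5 and 2.

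The same days in non-targeting cells gave the background of time and table. There 2 features were higher and 2 lower by edgeR, 5.71% of 70. MSTC minus rose by 0.67 ± 0.15 on the log2 scale (edgeR adjusted p = 0.00867) and L1PA12_3end minus by 0.40 ± 0.12 (edgeR adjusted p = 0.0422). HERV-Fc1 plus fell by 0.67 ± 0.20 (edgeR adjusted p = 0.0422) and L1P1_orf2 plus fell by 0.52 ± 0.14 (edgeR adjusted p = 0.0271). None of these 4 was called in SETDB1 cells by edgeR with TMM scaling, but DESeq2 called L1PA12_3end minus lower there, and MSTC minus was higher with table totals, without L1P1_orf2 or without SETDB1 day 4 replicate 2. In non-targeting cells DESeq2 gave 3 higher and 1 lower. The higher calls numbered 0 without non-targeting day 4 replicate 3 or day 7 replicate 3, where 8 features had an unadjusted p under 0.05. They numbered 1 without any of the other 4 non-targeting libraries, SETDB1 day 4 replicate 3, or SETDB1 day 7 replicate 1 or 2. The lower calls numbered 0 without non-targeting day 4 replicate 3 or any non-targeting day 7 library, and 1 without non-targeting day 4 replicate 1 or 2.

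The change in SETDB1 cells was then set against the change in non-targeting cells, in 1 interaction contrast. By edgeR, 4 of 70 features differed between the arms, 5.71%, with 2 higher and 2 lower. HERV3 minus moved by -0.02 ± 0.15 in non-targeting cells, where 218, 278 and 188 counts became 268, 250 and 203, and the difference between the arms was 1.50 ± 0.21 (edgeR adjusted p = 1.76e-06). LTR4 minus held 63, 70 and 47 counts and then 74, 95 and 58 in non-targeting cells, and differed by 1.35 ± 0.26 (edgeR adjusted p = 0.000387). For both, the non-targeting days overlapped whereas the SETDB1 days did not.

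ALR minus held 25, 19 and 29 counts and then 40, 29 and 27 in non-targeting cells, groups that overlapped, with a change of 0.30 ± 0.25 (edgeR adjusted p = 0.746). The difference between the arms was -1.30 ± 0.30 (edgeR adjusted p = 0.00326). L1PA12_3end minus was not called in SETDB1 cells (-0.23 ± 0.12, edgeR adjusted p = 0.183), and its difference of -0.63 ± 0.17 (edgeR adjusted p = 0.0125) was lost without any 1 of 4 libraries, SETDB1 day 7 replicate 2 and non-targeting day 4 replicate 3, day 7 replicate 1 and day 7 replicate 2. Table totals in place of TMM gave 7 higher and 2 lower differences and moved the median of tested features from -0.03 to 0.17, while DESeq2 gave 2 and 8. The higher count was 4 without SETDB1 day 4 replicate 1 or SETDB1 day 7 replicate 1. The lower count was 5 without either of the libraries that stood apart at day 4, and 1 without any of the 4 libraries just named.

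**Figure D3:**
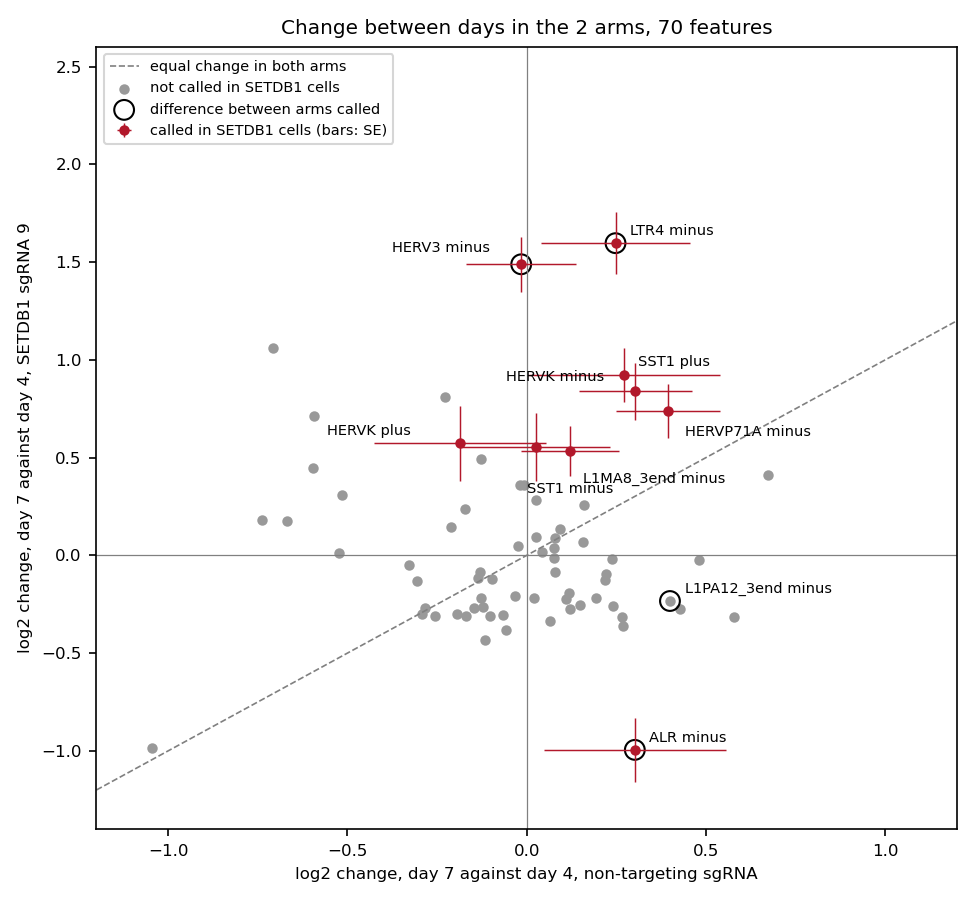
log2 change from day 4 to day 7 in SETDB1 cells (vertical) against that in non-targeting cells (horizontal) for the 70 tested features, with SE bars on the 9 called in SETDB1 cells and rings on the 4 whose difference between the arms was called. HERV3 minus and LTR4 minus lie far above the dashed line of equal change, at 1.49 and 1.60 against -0.02 and 0.25, and ALR minus lies far below it.

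The other 6 features called in SETDB1 cells were not shown to change differently from non-targeting cells. Their differences were 0.65 ± 0.30 for SST1 plus, 0.53 ± 0.27 for SST1 minus, 0.76 ± 0.31 for HERVK plus and 0.54 ± 0.22 for HERVK minus. They were 0.34 ± 0.20 for HERVP71A minus and 0.41 ± 0.19 for L1MA8_3end minus, and edgeR adjusted p ran from 0.12 to 0.278 over the 6. SST1 plus was low in non-targeting cells at both days, with 26, 20 and 15 counts and then 27, 28 and 23. The 8 higher features were chosen by their rise between the SETDB1 days. A rise of their sum there was set by that choice, so the sum is no test of the arms. Together they made up 4.62% ± 0.016 of the table's counts at day 4 and 10.3% ± 1.32 at day 7 in SETDB1 cells. In non-targeting cells the values were 3.38% ± 0.24 and 3.59% ± 0.21.

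Days lay apart for 34.3% of features in SETDB1 cells and 18.6% in non-targeting cells, and some features were in both sets. HERVP71A minus was above day 4 in both arms. In CPM, L1PA5_3end minus, L1PA10_3end minus, L1PA12_3end minus, MSTB1 minus and MLT2B5 minus were below day 4 in every SETDB1 day 7 library. They were above it in every non-targeting day 7 library. Before scaling, their counts overlapped between the SETDB1 days. In SETDB1 cells edgeR over all 12 libraries did not call them, and DESeq2 called the L1 features lower. Of these features, L1PA12_3end minus passed the test of the difference, and L1PA5_3end minus gave -0.50 ± 0.17 (edgeR adjusted p = 0.0525). L1PA10_3end minus gave -0.41 ± 0.17, MSTB1 minus -0.40 ± 0.19 and MLT2B5 minus -0.70 ± 0.30 (edgeR adjusted p = 0.121 to 0.16).

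The minus share, the percentage of an element's reads in its minus column, compares the strands inside each library and needs no scaling across libraries. Over 40 elements tested in edgeR with a term for each library, 7 had a higher minus share at day 7 in SETDB1 cells and 1 a lower one, or 20%, against 2 of 40, or 5%, in non-targeting cells. The difference between the arms was called for 2 of 40, or 5%. Non-targeting libraries held fewer counts on average. With the 6 SETDB1 libraries alone, 3 of 39 elements were called higher and 0 lower. The median change was 0.09 (log2 odds), and over the whole table the minus share was 71.0% ± 4.3 at day 4 and 69.9% ± 1.4 at day 7. SETDB1 day 4 replicate 1 had the lowest of these, 66.2%. Without that library, 5 elements were called lower. The lower count was 0 without SETDB1 day 7 replicate 2 or 3, with 4 and 3 elements lower at an unadjusted p under 0.05, and the higher count was 3 without SETDB1 day 4 replicate 3 and 4 without SETDB1 day 7 replicate 1 or 3.

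HERV3 had the clearest shift. Its minus share was 91.5%, 93.4% and 92.2% at day 4 and 97.5%, 96.9% and 96.4% at day 7, without overlap. The change was 1.39 ± 0.20 (log2 odds, edgeR adjusted p = 1.44e-07), and the difference from non-targeting cells, where the share was 89.6% ± 1.7 and 89.2% ± 1.2, was 1.47 ± 0.34 (edgeR adjusted p = 0.0016). L1MA8_3end went from 54.6%, 56.2% and 56.4% to 74.2%, 68.0% and 66.1%. Its change was 0.84 ± 0.15 (edgeR adjusted p = 8.06e-06), with a higher minus and a not called plus column, and the difference between the arms was 0.53 (edgeR adjusted p = 0.155). L1PBa1_5end went from 54.3% ± 6.7 to 67.0% ± 2.0 (0.79 ± 0.21, edgeR adjusted p = 0.00463). Its difference between the arms was 0.67 ± 0.33 (edgeR adjusted p = 0.218).

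ALR was the element with the lower minus share, 49.9%, 53.7% and 48.3% at day 4 and 47.6%, 36.6% and 37.6% at day 7. The change was -0.65 ± 0.19 (edgeR adjusted p = 0.00898), and this call was lost without SETDB1 day 7 replicate 2 or 3. In non-targeting cells the ALR share was 27.0% ± 4.3 at day 4 and 31.3% ± 6.8 at day 7. The difference between the arms was -0.89 ± 0.36 (edgeR adjusted p = 0.155). MSTC rose from 74.5% ± 5.4 to 81.9% ± 0.9 in SETDB1 cells (0.63 ± 0.20, edgeR adjusted p = 0.0184) and from 78.2% ± 2.6 to 86.0% ± 0.7 in non-targeting cells (0.79 ± 0.22, edgeR adjusted p = 0.0178). The remaining 3 rested on few counts of 1 strand or on overlapping shares. LTR60 had 1, 0 and 0 minus counts and then 0, 5 and 9. L1M2c_5end had 20 minus counts of 86 at day 4 and 35 of 70 at day 7. HERVP71A had 96.1% ± 1.8 and 98.2% ± 1.0, which overlapped, with 46 plus counts at day 4 and 38 at day 7. The MSTC, LTR60, L1M2c_5end and HERVP71A calls were each lost without SETDB1 day 4 replicate 3 and at least 2 other SETDB1 libraries.

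L1P1_orf2 differed between the arms in its minus share. It was 81.1% ± 5.0 at day 4 and 78.3% ± 2.4 at day 7 in SETDB1 cells, groups that overlapped, and 82.3% ± 3.2 and 87.9% ± 0.4 in non-targeting cells, where they did not. The difference was -0.91 ± 0.26 (log2 odds, edgeR adjusted p = 0.014). It was lost without any 1 of 6 libraries, SETDB1 day 4 replicates 2 and 3, SETDB1 day 7 replicate 2, non-targeting day 4 replicates 1 and 3 and non-targeting day 7 replicate 1, with values of -1.16 to -0.71 over all libraries left out in turn.

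**Figure D4:**
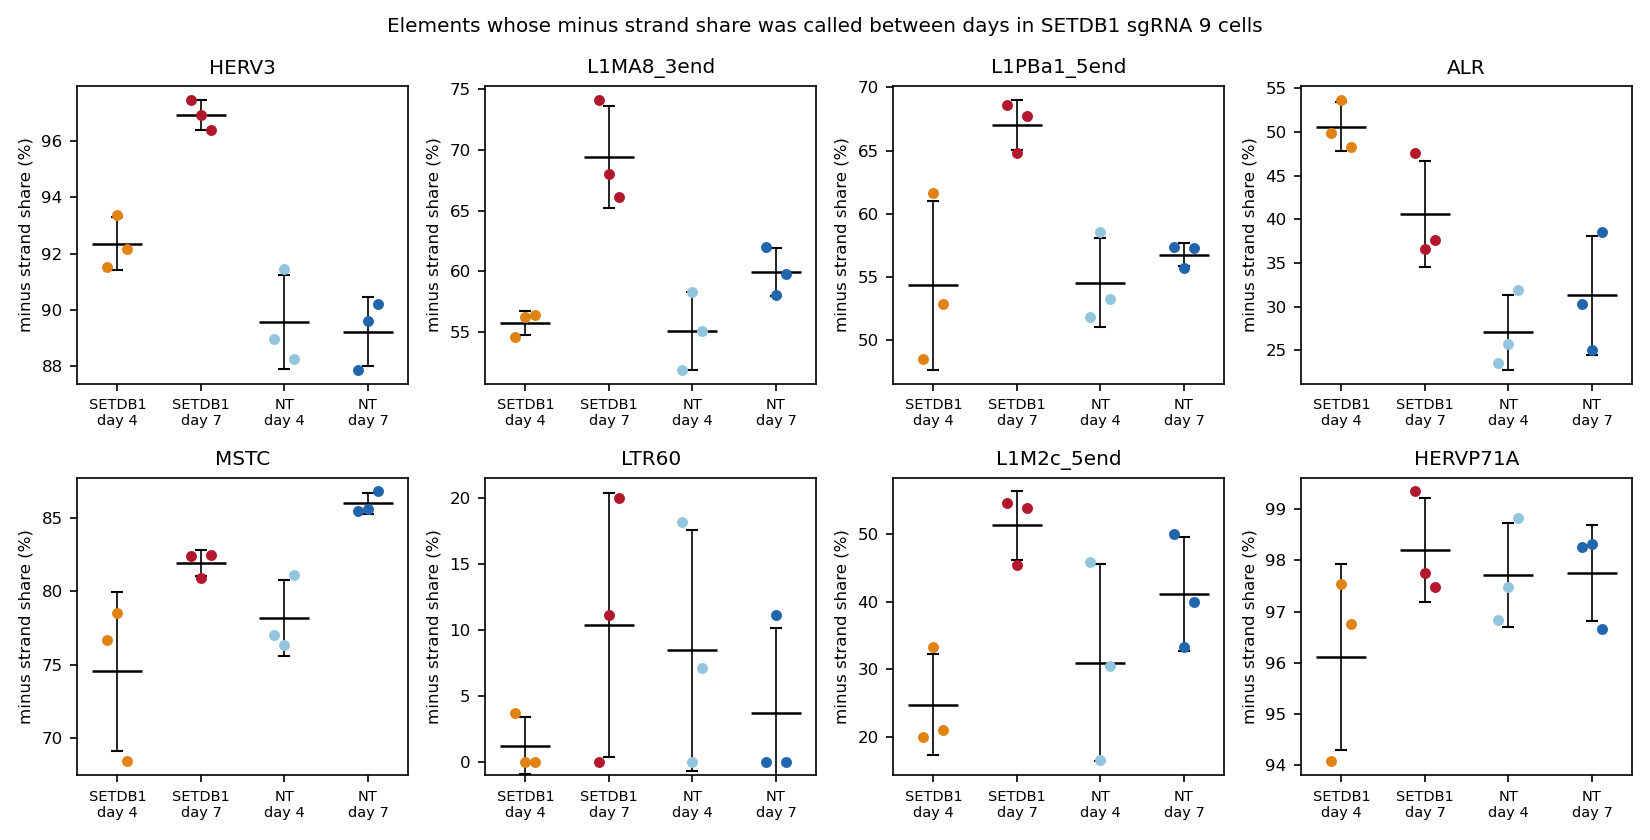
Minus share of each element (percent, axes that do not start at 0) in each library for the 8 elements called in SETDB1 cells, with bars for the mean and SD of the 3 libraries of a group. HERV3 goes from 92.4% to 96.9% and L1MA8_3end from 55.7% to 69.4% in SETDB1 cells, while LTR60 and L1M2c_5end rest on few counts.

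The sizes of the called changes were recomputed with other scalings, tools and sets of libraries. HERV3, LTR4, HERVK, HERVP71A and ALR on the minus strand and SST1 on the plus strand were called under all 19 alternatives. Over these, HERV3 minus ranged from 1.35 to 1.60, LTR4 minus from 1.40 to 1.72 and ALR minus from -1.17 to -0.86.

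**Figure D5:**
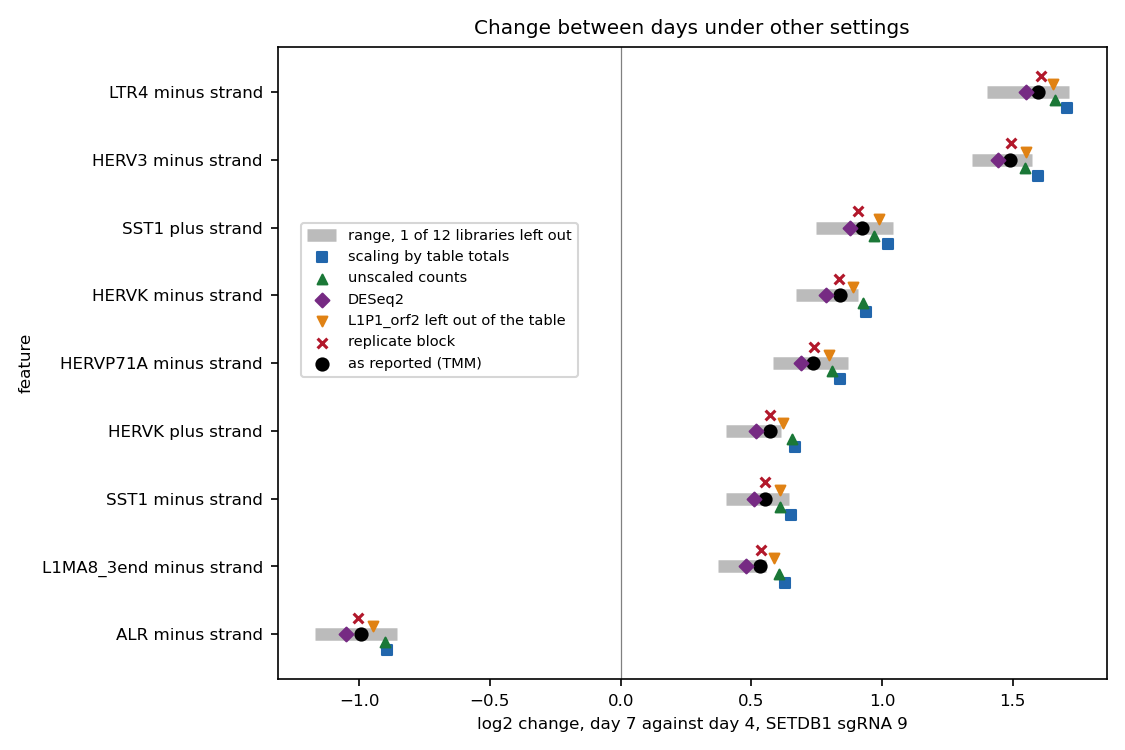
log2 change from day 4 to day 7 in SETDB1 cells for the 9 called features as reported, under other scalings and fits, and as the range over 12 fits that each leave out 1 library. Each feature keeps its sign, and the lowest values for HERVK plus, SST1 minus and L1MA8_3end minus are 0.40, 0.40 and 0.37.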

How the data were processed

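Total RNA of 12 THP-1 samples in 4 groups of 3 was sequenced. The values are the whole-number counts per element and strand as deposited by the authors, in a table for each day; the 24 count columns were matched to samples by their descriptions, and 0 columns belonged to others. CASAVA 1.8, BWA and HTSeq are named, per the submitters' processing notes, without roles. Not given in the sources used here are the build, the repeat models, the handling of multiply mapped reads, how the 45 elements were picked and the meaning of plus and minus. Table totals were 27388 to 58916 counts, the depth behind each value; whole-library depth is unknown.

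Features were filtered with filterByExpr (minimum count 10, total 15) and fitted in edgeR 4.0.16 (R 4.3.3) with TMM factors over all 12 libraries in 4 groups (biological coefficient of variation 11.4%, 8 residual degrees of freedom). p-values were Benjamini-Hochberg adjusted over 70 features, with a threshold of 0.05. The minus strand share was fitted with 24 strand columns and a block for the library. Scripts were tested on simulated data. No SETDB1 library was a duplicate, as pairs within groups had chi-square values of 3.18 to 15.4 per degree of freedom (p at most 3.48e-19). Alternatives were table totals, unscaled counts, DESeq2 1.42.0, limma 3.58.1 (for the share), no filter, L1P1_orf2 left out, the replicate number as a block, the 6 libraries of a contrast alone, and each library left out.

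Members and lists were chosen with earlier results of these data known. Named features were those called in SETDB1 cells, in the difference or in the share, the 5 largest changes in each direction, and the most abundant of each list; others are named where their groups did not overlap, the control arm or an alternative called them, or as examples picked after their values were seen.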

Additional observations from a re-analysis of the deposited data

Results flagged for a closer look

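The change from day 4 to day 7 differed between SETDB1 sgRNA 9 and non-targeting cells, by edgeR's test of the difference itself, for 4 features and for 2 minus strand shares. On the log2 scale the differences were 1.50 for HERV3 minus, 1.35 for LTR4 minus, -1.30 for ALR minus and -0.63 for L1PA12_3end minus. In log2 odds they were 1.47 for the minus share of HERV3 and -0.91 for that of L1P1_orf2. The L1PA12_3end minus difference was lost under 5 of 18 alternatives and that of the L1P1_orf2 share under 8 of 15. The others were called under every alternative. For these 2, edgeR over all 12 libraries called the change between days in non-targeting cells and not in SETDB1 cells. DESeq2 called L1PA12_3end minus lower in SETDB1 cells.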

How the results depend on the processing

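Of the values of single features and elements under alternatives, 539 kept their direction and side of the threshold, 57 fell below it, 27 passed it and 5 changed sign, of 2 features not called in any setting. HERVP71A plus was 0.048 without SETDB1 day 4 replicate 1 and ranged from -0.668 to 0.048 over libraries left out. LTR26 minus was 0.0657 with table totals, 0.0475 unscaled and 0.0241 without L1P1_orf2, and ranged from -0.195 to 0.146 over libraries left out, the highest without SETDB1 day 4 replicate 1. Against 8 higher and 1 lower features in SETDB1 cells, higher calls were 11 with table totals, no filter or without L1P1_orf2. They were 5 with unscaled counts. Table totals and the fit without L1P1_orf2 added HERVL18 plus, MSTC minus and THE1C plus. No filter added HERVL18 plus, LTR60 minus and MER101B plus. Lower calls were 7 with DESeq2 and 2 with no filter or the replicate block. Leaving out libraries gave 5 to 10 higher and 1 to 17 lower. Against 2 higher and 2 lower in non-targeting cells, higher calls were 1 with table totals, the replicate block or the 6 libraries alone, 4 with no filter and 5 without L1P1_orf2. Lower calls were 1 with DESeq2 and 0 with no filter or without L1P1_orf2, where 17 and 14 features passed unadjusted. Unscaled counts gave 0 in each direction (edgeR, 6 unadjusted). Libraries left out gave 0 to 2 in each direction. For the difference between the arms (2 and 2), table totals gave 7 higher; lower calls were 1 with unscaled counts, 8 with DESeq2, 6 with no filter and 5 without L1P1_orf2. Libraries left out gave 2 to 4 higher and 1 to 5 lower. For the minus share (7 and 1), limma gave 4 higher and 0 lower (2 lower unadjusted), and the 6 libraries alone 3 and 0 (4 lower unadjusted); libraries left out gave 3 to 7 and 0 to 5. The ratio of totals, 0.986, was 1.03 without L1P1_orf2 and 0.914 to 1.10 with libraries left out, 1.07 without SETDB1 day 4 replicate 3 and 1.10 without SETDB1 day 7 replicate 1. Other than with libraries left out, calls lost were HERVK plus and SST1 minus with unscaled counts or DESeq2, HERVK plus also under the replicate block, L1MA8_3end minus and the L1PA12_3end minus difference with unscaled counts, and the L1P1_orf2 share difference with limma or the block. Of the shares, HERVP71A was lost with limma, the block or the 6 libraries alone, ALR, MSTC and LTR60 with limma or the 6 libraries alone, and L1M2c_5end with the 6 libraries alone. The causes were not tested.

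Whether replicate numbers pair the samples is not stated in the labels. Deviations of same-numbered SETDB1 libraries at the 2 days correlated at -0.31 to -0.20 over features. Differently numbered SETDB1 libraries gave -0.10 to 0.27. Over all pairs of groups, same-numbered libraries gave -0.31 to 0.31. Deviations within such small groups depend on each other, so these correlations cannot decide whether samples were paired. The replicate block therefore rests on a pairing that is not stated. The block gave 7 higher and 2 lower features in SETDB1 cells. Features of few counts limit precision, and levels are relative to a table in which L1P1_orf2 holds at least 30.7% of counts in every library.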
